A study of Mus musculus with 2 samples.

Results

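The genes described here are 36 genes of the cell division cycle, found by symbol among the 32285 genes of each count matrix. They are 15 genes of DNA synthesis (S phase), 19 genes of G2 and mitosis, and 2 abundant genes, Stmn1 and Hmgb2, that follow division without marking a phase. All 36 were found, and their unique molecular identifiers (UMIs, 1 per captured RNA molecule) were counted in every cell of both libraries of the study. The study profiled immune cells of the mouse gut lamina propria in 2 single-cell RNA-seq libraries, CD163_FL and CD163_NC. Both libraries were labelled as CD45+ cells of the gut lamina propria (CD45 marks cells of blood origin), and per the labels' protocols the organ was the colon. Cells of both were enriched on a Percoll gradient, sorted, cleared of dead cells by 7-AAD staining, and made into libraries with the 10x 3′ V3 kit. The series title names WT mice and mice deficient in CD163+ macrophages, but no label ties a genotype, strain, age or number of animals to either library, so the library names are used throughout.

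Each group was 1 library. No difference below has a replicate check and no test was possible, so ratios compare these libraries and not the conditions behind them. All intervals are 95% intervals that cover counting error only, and any difference in preparation cannot be told apart from the group.

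A dividing cell first copies its DNA and then separates the copies. E-type cyclins and the E2F transcription factors switch on the replication genes at the start of S phase. The genes of mitosis are switched on later, largely through the MuvB complex with B-Myb and FOXM1, and held silent in resting cells by the related DREAM complex. In the gut wall, most lymphocytes are resting or differentiated, while germinal center B cells, plasmablasts, activated T cells and epithelial progenitors divide. The S phase genes counted here were Mcm2, Mcm3, Mcm4, Mcm5, Mcm6 and Mcm7 (subunits of the helicase that opens the DNA), Cdc6 (which loads that helicase), Pcna (the sliding clamp of the polymerases), Pclaf (a partner of the clamp), Rrm1, Rrm2, Tk1 and Tyms (enzymes of nucleotide supply) and Ccne1 and Ccne2 (the E-type cyclins). The mitotic genes were Cdk1 with its cyclins Ccna2, Ccnb1 and Ccnb2, the kinases Aurka, Aurkb, Plk1 and Bub1, Birc5 (survivin, which works with Aurkb), Ube2c and Cdc20 (of the machinery that degrades cyclin B), Cenpa, Cenpe and Cenpf (of the centromere and kinetochore), Kif11, Tpx2 and Nusap1 (of the spindle), Top2a (which untangles DNA) and Mki67 (the Ki-67 protein that coats mitotic chromosomes). Stmn1 encodes a regulator of microtubules and Hmgb2 a chromatin protein.

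The sequences before the start sites of some members show the letters that both regulatory systems are known to read, and these are printed because the S phase and mitotic genes are followed separately below. RefSeq promoter windows (GRCm38.p6, 250 bases before to 50 after the start, 300 bases each) were matched for 30 of the 36 members, 13 S phase genes, 16 mitotic genes and Hmgb2. On either strand, the letters TTTGAA of the cell cycle homology region, the element bound by MuvB, stood in 11 of 16 mitotic windows, in 1 of 13 S phase windows, and in 17.9% of all 32851 windows of that length. The CCAAT box, bound by NF-Y, stood in 14 of 16 mitotic windows, in 9 of 13 S phase windows and in 37.4% of all windows. The E2F letters TTTCCCGC, TTTGGCGC, TTTCGCGC or TTTGCCGC stood in 6 of 13 S phase windows, in 1 of 16 mitotic windows (Cdk1) and in 2.26% of all windows. A match is a description of letters and not a mapped binding site. The stretches below are read 5′ to 3′ on the strand of each gene. In the mitotic genes Cdc20, Kif11 and Top2a, capitals mark TTTGAA and CCAAT or their reverse complements TTCAAA and ATTGG. In the S phase genes Mcm5 and Mcm6, capitals mark the E2F letters on either strand. Some of these matches lie on opposite strands and overlap.
Cdc20 chr4:118437344-118437416 (minus strand): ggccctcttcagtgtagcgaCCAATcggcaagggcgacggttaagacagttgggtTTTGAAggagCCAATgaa
Kif11 chr19:37376317-37376381 (plus strand): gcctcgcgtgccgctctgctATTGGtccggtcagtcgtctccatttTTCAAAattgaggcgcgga
Top2a chr11:99024190-99024307 (minus strand): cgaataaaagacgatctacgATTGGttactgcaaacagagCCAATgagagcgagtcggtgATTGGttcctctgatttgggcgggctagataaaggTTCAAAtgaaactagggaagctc
Mcm5 chr8:75109336-75109387 (plus strand): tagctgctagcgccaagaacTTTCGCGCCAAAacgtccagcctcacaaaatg
Mcm6 chr1:128359725-128359835 (minus strand): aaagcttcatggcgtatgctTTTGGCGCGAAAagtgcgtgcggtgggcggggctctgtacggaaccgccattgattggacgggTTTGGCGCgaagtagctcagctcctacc

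The CD163_FL library held 15270 barcodes and 131306539 UMIs, and the CD163_NC library held 10390 barcodes and 94729872 UMIs. After filters, 13715 cells (median 6462 UMIs) of CD163_FL and 9756 cells (median 6040 UMIs) of CD163_NC were kept, and 38 kept barcodes occurred in both libraries, 4 of them in the same cell type. Scrublet called 4.40% of CD163_FL and 2.47% of CD163_NC barcodes as doublets, below the 12.2% and 8.31% expected from their numbers, so some doublets will have stayed. Cell types were assigned by counting distinct markers, none of which is a member, and 84.4% of CD163_FL and 83.0% of CD163_NC cells were placed. Defining markers were counted in each gate. Genes that a gate uses are frequent in it, or absent from it, by construction, so these values describe the gates and do not test them. Cd3e was found in 86.4% and 87.3% of CD8 T cells of CD163_FL and CD163_NC, Cd8b1 in 84.3% and 83.3%, and the B cell gene Ms4a1 in 0.320% and 2.40%. IgA plasma cells had the plasma cell gene Sdc1 in 90.9% of CD163_FL and 91.4% of CD163_NC cells and Ms4a1 in 2.91% and 8.77%. The other plasma cell gates were mixed: Ms4a1 was found in 9.60% of IgG plasma cells of CD163_FL and 33.6% of those of CD163_NC, and cells of the plasma cell gate with no dominant heavy chain had Ms4a1 in 43.8% and 87.1% and Sdc1 in 50% and 28.2%. Free RNA differed between the libraries: S100a8, an abundant neutrophil gene, had a UMI in 1.07% of CD8 T cells of CD163_FL and in 43.3% of those of CD163_NC, and the part of free RNA in the results was not tested.

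To compare cells at equal depth, each cell was thinned to 2000 UMIs, and 843 shallower cells of CD163_FL and 1049 of CD163_NC were left out. A cell was called mitotic when it held UMIs of at least 2 of the 19 mitotic genes and S positive when it held UMIs of at least 2 of the 15 S phase genes. The word mitotic is used as a short name for this call on genes of G2 and mitosis, and does not place a cell in mitosis itself. A cell could be both, as were 356 of the 547 mitotic CD8 T cells of CD163_FL. Naive B cells, a largely resting lineage, were taken as the yardstick for the mitotic call. In them 2.22% (15 of 676, median 4434 UMIs) of CD163_FL cells and 2.76% (35 of 1267, median 5207 UMIs) of CD163_NC cells were called mitotic, and 9.02% and 13.4% were S positive. Mitotic shares near these values are not read as division. Cenpa, which counts toward the call, had a UMI in 17.3% and 12.6% of naive B cells of CD163_FL and CD163_NC. In type 2 innate lymphoid cells it had one in 4.23% and 0%, so the background of the call can differ between lineages. Naive B cells are no such yardstick for the S call, since macrophages of both libraries and type 2 innate lymphoid cells had lower S positive shares than they did.

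Over all cells the libraries were close in shares. Mitotic cells made up 11.4% of CD163_FL and 10.2% of CD163_NC (ratio 1.12, interval 1.03 to 1.21), and S positive cells 18.7% and 19.4% (ratio 0.962, interval 0.910 to 1.02). Without thinning the mitotic shares were 26.2% and 23.4%. The summed UMIs of the mitotic genes over all kept cells, scaled to a common total (CPM), went the other way. They stood at 571 CPM in CD163_FL and 682 CPM in CD163_NC (0.837-fold, interval 0.828 to 0.846). Those of the S phase genes stood at 712 and 761 CPM (0.936-fold, interval 0.926 to 0.945). Why the mitotic share and the mitotic level differed in direction was not tested. Over the 14 lineages with at least 50 cells in each library, 11.4% of CD163_FL and 7.18% of CD163_NC cells were mitotic. Outside them, germinal center B cells held 13 of the 1473 mitotic cells of CD163_FL and 77 of the 890 of CD163_NC, plasma cells with no dominant heavy chain 13 and 63, granulocyte progenitors 0 and 45, and cells that passed several gates 108 and 132. Of the 14 lineages, the mitotic share was at least 1.5-fold higher in CD163_FL in 5, at least 1.5-fold lower in 3, and within 1.5-fold in 6. Of the 3 lower, NK or type 1 innate lymphoid cells (6 mitotic cells in CD163_FL and 3 in CD163_NC) and type 2 innate lymphoid cells (6 and 4) lay near the naive B cell shares and had ratios on the other side of 1 in some alternatives, and the third was B cells that were neither naive nor germinal center. The interval of the ratio lay above 1 for CD8, CD4 and other T cells, and below 1 for IgA plasma cells and for B cells that were neither naive nor germinal center. The S positive share was at least 1.5-fold lower in CD163_FL in 6 lineages and at least 1.5-fold higher in 0, with a ratio of 0.673 (interval 0.510 to 0.887) in naive B cells.

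**Figure D1:**
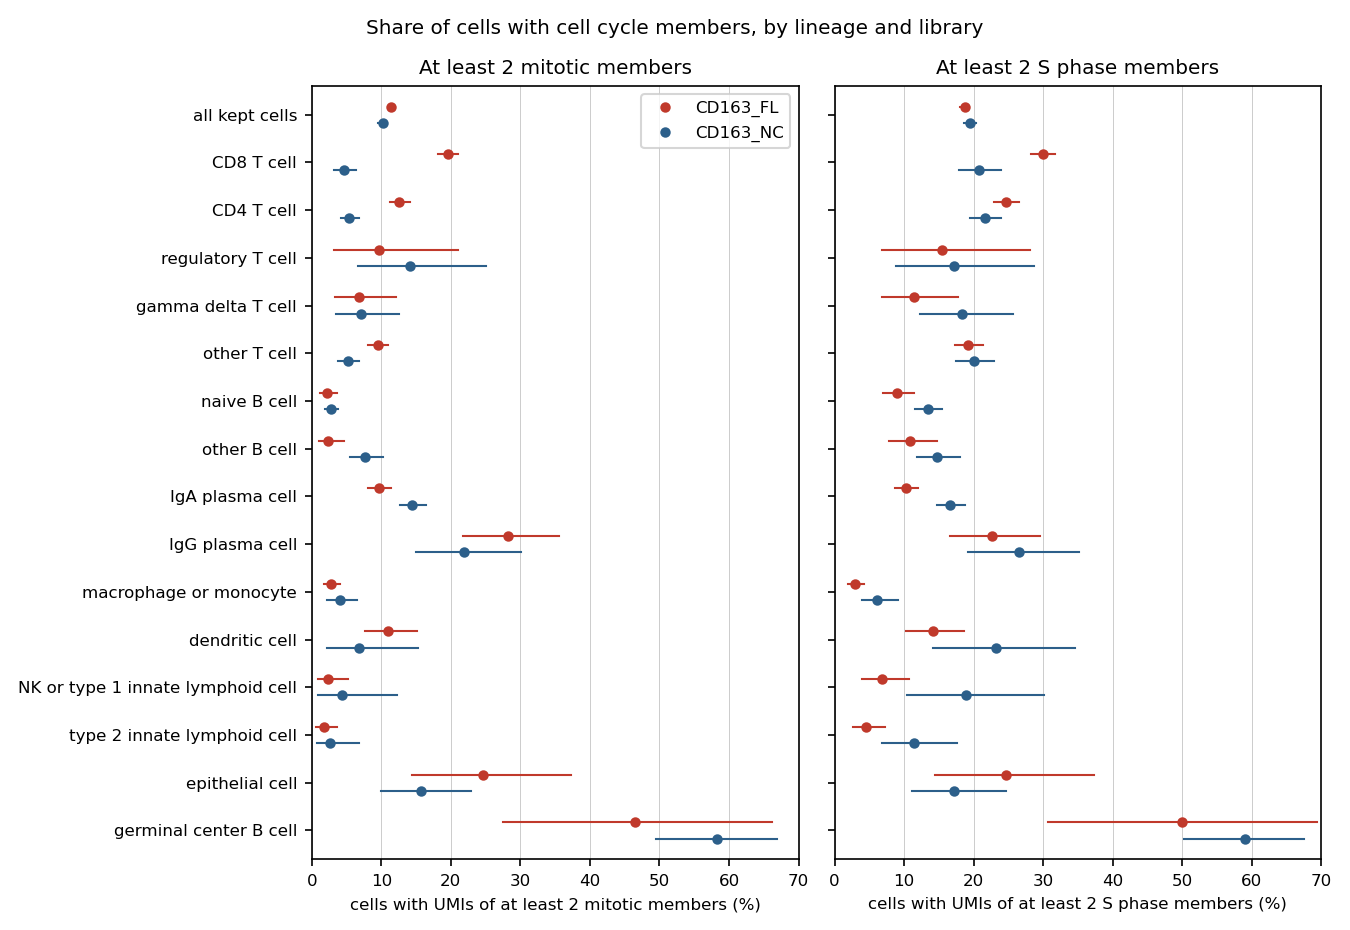
Share of cells (%, horizontal axis) with UMIs of at least 2 mitotic members (left panel) or at least 2 S phase members (right panel) at 2000 UMIs per cell, with 1 row per lineage, CD163_FL in red above CD163_NC in blue. Bars are exact binomial 95% intervals. CD8 T cells stand at 19.6% mitotic in CD163_FL against 4.64% in CD163_NC, while IgA plasma cells stand at 9.66% against 14.5%.

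CD8 T cells, the cytotoxic lineage, had the widest gap. In CD163_FL 547 of 2795 (19.6%) were mitotic, against 34 of 732 (4.64%) in CD163_NC, a ratio of 4.21 (interval 3.01 to 5.90). The CD163_FL share was far above that of naive B cells, and the CD163_NC share lay above it by less than 2 percentage points. Cenpa, which counts toward the mitotic call, had a UMI in 16.4% of CD8 T cells of CD163_FL and 5.87% of those of CD163_NC. Its part in the ratio was not tested. S positive CD8 T cells made up 29.9% and 20.8% (ratio 1.44, interval 1.24 to 1.68). Unthinned, 41.0% of CD163_FL and 17.2% of CD163_NC CD8 T cells were mitotic, beside 8.87% and 14.0% of unthinned naive B cells. Mitotic CD8 T cells were deeper than the cells that were neither mitotic nor S positive, with medians of 11612 and 7045 UMIs in CD163_FL and 8162 and 5708 UMIs in CD163_NC. They carried a mean of 6.84 of the 10 T cell markers in CD163_FL and 6.5 in CD163_NC, against 6.38 and 6.32 in the cells that were neither. The T cell gate itself needed 3 of these markers, so these means do not test the lineage of the cells. Neutrophil markers averaged 0.0567 of 11 in the mitotic CD8 T cells of CD163_FL and 1.38 of 11 in those of CD163_NC. Doublet calls were compared over all lineages, before their removal, in mitotic cells and in cells that were neither mitotic nor S positive. Doublets were called in 5.09% and 4.71% of these in CD163_FL, and in 1.87% and 2.81% in CD163_NC.

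The levels of the members in CD8 T cells, as the lineage's summed UMIs scaled to a common total (CPM), went the same way without thinning. Of the 36 members, 24 were at least 1.5-fold higher in CD163_FL and 1 was at least 1.5-fold lower, against 17.0% and 19.4% of the 12561 genes measured there (at least 20 UMIs over both libraries). The median log2 ratio of the members was 0.88, against 0.06 for all genes measured. Of the S phase members 9 of 15 were higher, and of the mitotic members 13 of 19.

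Among the S phase genes in CD8 T cells, Pclaf stood highest in ratio, at 163 CPM in CD163_FL and 53.3 CPM in CD163_NC (3.05-fold, interval 2.68 to 3.48). Mcm6 had 113 CPM in CD163_FL and 46.8 CPM in CD163_NC (2.42-fold), and Tyms 31.0 and 12.8 CPM (2.42-fold). The subunits of the helicase did not move as one: Mcm3, Mcm5 and Mcm6 were more than 2-fold higher, while Mcm4 had 49.8 CPM in CD163_FL and 46.1 CPM in CD163_NC (1.08-fold, interval 0.933 to 1.26). Pcna, abundant in many cells, had 411 and 331 CPM (1.24-fold). Ccne2, the cyclin of entry into S phase, was the member that was lower in CD163_FL, at 6.83 CPM against 12.8 CPM in CD163_NC (0.532-fold, interval 0.393 to 0.729), and Ccne1 had 5.45 and 6.96 CPM (0.783-fold, interval 0.529 to 1.19).

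Among the mitotic genes in CD8 T cells, Birc5 and Aurkb, partners in the chromosomal passenger complex, had the highest ratios. Birc5 had 77.5 CPM in CD163_FL and 23.1 CPM in CD163_NC (3.36-fold, interval 2.76 to 4.13), and Aurkb had 10.2 and 3.05 CPM (3.36-fold, interval 1.97 to 6.24). Ccna2, the cyclin of late S phase and G2, had 28.6 and 8.70 CPM (3.29-fold), and Mki67 118 and 38.9 CPM (3.04-fold). Ube2c, Bub1, Kif11 and Ccnb2 were 2.24-fold to 2.69-fold higher. The kinases Aurka and Plk1, which drive entry into mitosis, were level: Aurka had 6.99 CPM in CD163_FL and 6.96 CPM in CD163_NC (1.00-fold, interval 0.686 to 1.51), and Plk1 5.53 and 5.44 CPM (1.02-fold, interval 0.660 to 1.63). Nusap1 (1.07-fold) and Cdc20 (1.14-fold) were also near 1. Both members with no phase were higher, Stmn1 at 196 and 74.0 CPM (2.64-fold) and Hmgb2 at 1530 and 655 CPM (2.34-fold). Per cell the picture was alike for some members. At 2000 UMIs, Pclaf had a UMI in 12.9% of CD8 T cells of CD163_FL and 2.60% of those of CD163_NC. Mki67 had one in 11.4% and 3.28%, and Aurka in 1.22% and 1.64%. For others it differed from the levels. Plk1 had a UMI in 0.501% (14 cells) and 0.137% (1 cell). Mcm4 (8.12% and 5.46%) and Mcm3 (7.66% and 5.60%) were both found in more cells of CD163_FL. In naive B cells Pclaf had a UMI in 0.888% and 1.97%, Mki67 in 1.18% and 2.05%, and Aurka in 0.444% and 0.631%.

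**Figure D2:**
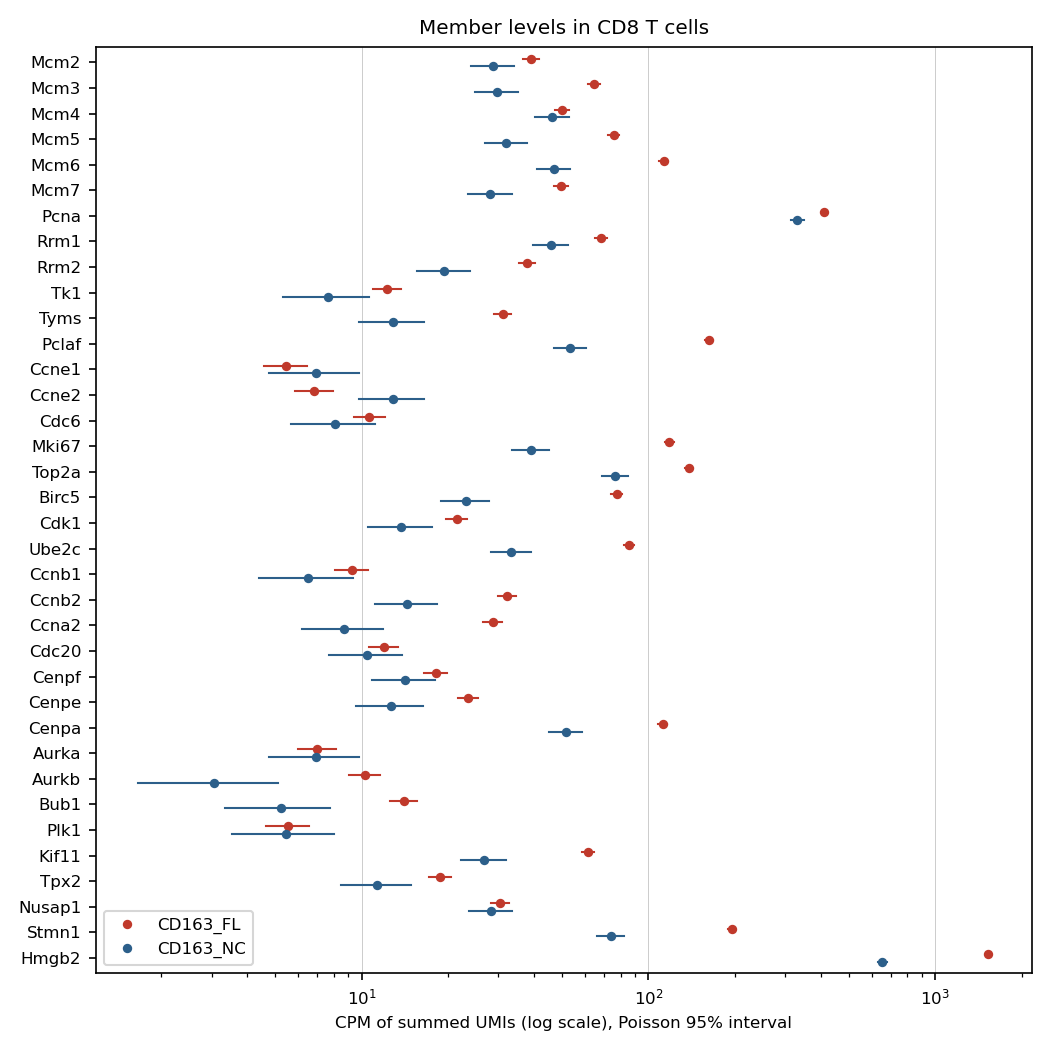
Level of each of the 36 members in CD8 T cells (CPM of summed UMIs, log axis), with CD163_FL in red drawn above CD163_NC in blue. Bars are Poisson 95% intervals. Birc5 (77.5 CPM in CD163_FL, 23.1 CPM in CD163_NC) is among the widest gaps, and for Aurka and for Plk1 the points of the libraries nearly coincide.

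CD4 T cells, the helper lineage, showed the same direction at smaller size in the shares. Mitotic cells were 273 of 2168 (12.6%) in CD163_FL and 73 of 1349 (5.41%) in CD163_NC (ratio 2.33, interval 1.81 to 2.99), and S positive cells 24.7% and 21.6% (ratio 1.14, interval 1.01 to 1.29). In levels 26 members were at least 1.5-fold higher and 0 were lower, against 11.6% and 18.5% of all genes measured. The median log2 ratio was 1.01, against -0.01 for all genes measured. Of the mitotic genes 17 of 19 were higher, and of the S phase genes 7 of 15. Aurkb had 9.99 CPM in CD163_FL and 2.51 CPM in CD163_NC (3.99-fold, interval 2.55 to 6.52), Birc5 50.8 and 12.9 CPM (3.95-fold) and Pclaf 114 and 34.6 CPM (3.29-fold). Aurka (1.05-fold), Plk1 (1.22-fold) and Pcna (1.20-fold) were again near 1, as were Mcm2 and Ccne1 (both 1.06-fold), and Ccne2 had the lowest ratio, 6.34 against 8.43 CPM (0.752-fold, interval 0.556 to 1.02).

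T cells that passed neither the CD4, CD8, regulatory nor gamma delta gate were mitotic in 148 of 1564 cells (9.46%) in CD163_FL and 44 of 853 (5.16%) in CD163_NC (ratio 1.83, interval 1.32 to 2.54). Their S positive shares were 19.2% and 20.0%. Pclaf, at 71.2 and 34.4 CPM, Bub1, at 8.34 and 3.52 CPM, and Cenpa, at 113 and 47.3 CPM, were more than 2-fold higher. In all, 13 members were at least 1.5-fold higher and 1, Plk1 at 2.62 and 4.89 CPM, was lower, against 11.8% and 17.5% of all genes. Regulatory T cells, the Foxp3 lineage that restrains others, were few: 5 of 52 were mitotic in CD163_FL and 9 of 64 in CD163_NC (ratio 0.684, interval 0.244 to 1.92), so a difference was not detectable at this depth. Of 22 members measured there 2 were higher (Mcm4 and Rrm2) and 2 lower (Mcm2 and Cenpe), each with an interval that includes 1, against 19.2% and 13.5% of all genes. Relative to the median of all genes, 0.10, 0 were higher and 2 lower.

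Gamma delta T cells, an innate-like lineage of barrier tissues, had like mitotic shares, 10 of 148 (6.76%) in CD163_FL and 10 of 142 (7.04%) in CD163_NC. S positive cells were 11.5% and 18.3%, a ratio of 0.627 whose interval, 0.356 to 1.11, includes 1. The summed levels of most S phase genes were lower in CD163_FL. Of 23 members measured 13 were at least 1.5-fold lower and 2 higher, against 21.7% and 17.4% of all genes, and 11 of the 12 measured S phase members were among the lower. Rrm2, the limiting subunit of ribonucleotide reductase, had 4.76 CPM in CD163_FL and 41.9 CPM in CD163_NC (0.114-fold, interval 0.0351 to 0.286), and Mcm2 7.62 and 45.7 CPM (0.167-fold, interval 0.0681 to 0.355). The members that were higher were Cenpa, at 129 and 33.3 CPM, and Ube2c, at 22.9 and 6.67 CPM. The counts behind these levels are small, 5 against 44 UMIs for Rrm2.

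The wider cell cycle lists went the way of the members in CD8 and CD4 T cells. In CD8 T cells 42 of 69 further mitotic genes were at least 1.5-fold higher and 0 lower, against 17.0% and 19.4% of all genes. Of 46 further S phase genes 20 were higher and 2 lower. The lower ones were Nasp, a histone chaperone, at 209 and 344 CPM, and Orc1, of the origin recognition complex, at 27.9 and 45.0 CPM. In CD4 T cells these counts were 43 and 0 of 68, and 22 and 0 of 46, against 11.6% and 18.5% of all genes. Relative to the median of all genes, the further mitotic genes numbered 35 higher and 1 lower in CD8 T cells, and 43 and 0 in CD4 T cells. The largest ratios in CD8 T cells were those of Exo1, a nuclease of DNA repair and replication, at 5.57 CPM in CD163_FL and 1.09 CPM in CD163_NC, Kif4, a motor of the mitotic chromosome, at 24.9 and 5.22 CPM, and Foxm1, the transcription factor of the mitotic genes, at 13.9 and 3.70 CPM. Foxm1 was 3.75-fold higher (interval 2.31 to 6.51).

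Several brakes on division and both abundant D-type cyclins were lower in CD8 T cells of CD163_FL. Of 11 measured genes that restrain division, 6 were at least 1.5-fold lower in CD8 T cells of CD163_FL and 1 higher (Cdkn2a, with 20 and 2 UMIs), against 19.4% and 17.0% of all genes, with a median log2 ratio of -0.74, against 0.06 for all genes. Klf2, a factor of quiescent T cells, had 193 CPM in CD163_FL and 633 CPM in CD163_NC (0.305-fold, interval 0.291 to 0.319), and Btg2, which slows the cycle, 115 and 277 CPM (0.416-fold). The inhibitor Cdkn1a (p21) had 48.7 and 82.9 CPM, and Cdkn1b (p27) 90.7 and 101 CPM. Of the D-type cyclins, which carry cells through G1, Ccnd3 had 62.4 CPM in CD163_FL and 191 CPM in CD163_NC (0.328-fold), and Ccnd2 89.1 and 213 CPM (0.418-fold), while Ccnd1 had 12 and 1 UMIs, too few to be counted. In contrast E2f1, E2f2 and E2f7, of the family that drives or limits S phase genes, were 2.00-fold to 2.41-fold higher. In CD4 T cells Klf2 had 201 and 359 CPM, Btg2 132 and 242 CPM, and Ccnd3 57.3 and 145 CPM, with 4 of 12 brakes lower and 0 higher, against 18.5% and 11.6% of all genes. Of the brakes measured, 1 of 8 was lower and 1 higher in gamma delta T cells, against 21.7% and 17.4% of all genes, and 2 of 10 were lower and 1 higher in other T cells, against 17.5% and 11.8%.

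Plasma cells, the antibody-secreting end stage of B cells, stood on the opposite side. IgA plasma cells were mitotic in 126 of 1304 cells (9.66%) in CD163_FL and in 198 of 1369 (14.5%) in CD163_NC (ratio 0.668, interval 0.541 to 0.824), and S positive in 10.3% and 16.7% (ratio 0.617, interval 0.505 to 0.753). Immunoglobulin RNA takes up much of a plasma cell's UMIs, and with it removed before thinning the mitotic shares were 11.7% and 16.4%. In levels 29 members were at least 1.5-fold lower in CD163_FL and 0 higher, against 18.9% and 11.8% of all genes, with a median log2 ratio of -0.93, against -0.07 for all genes. Plk1 was lowest, at 2.28 CPM in CD163_FL and 8.30 CPM in CD163_NC (0.275-fold, interval 0.200 to 0.372). Aurka had 2.32 and 6.87 CPM (0.338-fold) and Pclaf 37.8 and 101 CPM (0.373-fold). These kinases, level in CD8 and CD4 T cells, had the lowest ratios of all members in IgA plasma cells. Nearest to 1 were Cenpa, at 21.7 and 23.7 CPM (0.917-fold, interval 0.813 to 1.03), and Kif11, at 33.3 and 38.9 CPM (0.855-fold). Mki67 had 83.5 and 106 CPM (0.785-fold).

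Of the wider lists in IgA plasma cells, 46 of 69 mitotic genes and 27 of 46 S phase genes were lower and 0 higher in either. All genes were lower in 18.9% and higher in 11.8%. Relative to the median of all genes, 37 mitotic and 27 S phase genes were lower. The brakes had members on both sides, 3 higher and 3 lower of 12, against 11.8% and 18.9% of all genes, with Cdkn1a at 20.3 CPM in CD163_FL and 10.2 CPM in CD163_NC, Cdkn2b (p15) at 6.67 and 2.38 CPM and Foxo1 at 288 and 156 CPM on the higher side, and Klf2 at 222 and 358 CPM, Cdkn2d and Cdkn1c on the lower. IgG plasma cells were mitotic in 50 of 177 (28.2%) and 28 of 128 (21.9%), a ratio of 1.29 whose interval, 0.863 to 1.93, includes 1. There 3 members were higher, Cenpf at 45.3 and 16.2 CPM, Ube2c at 98.7 and 46.3 CPM and Aurka at 8.12 and 5.10 CPM, and 2 were lower, Pclaf at 103 and 185 CPM and Mcm4 at 13.1 and 20.0 CPM, against 20.3% and 10.7% of all genes. Relative to the median of all genes, 0.13 on the log2 scale, 2 were higher and 4 lower. Plasma cells with no dominant heavy chain, 48 cells in CD163_FL and 124 in CD163_NC and so too few for the count of lineages, were mitotic in 27.1% and 50.8%, with 0 members higher and 35 of 36 lower, against 16.0% and 34.3% of all genes. Relative to the median of all genes there, -0.28, 29 were lower.

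Germinal center B cells, the rapidly dividing B cells of follicles, had the highest shares of any B or T lineage in both libraries, with 13 of 28 (46.4%) mitotic in CD163_FL and 77 of 132 (58.3%) in CD163_NC. The ratio was 0.796 with an interval of 0.521 to 1.22. In levels 19 of 36 members were lower and 0 higher, against 19.8% and 22.2% of all genes, with Pclaf at 249 CPM in CD163_FL and 693 CPM in CD163_NC. B cells that were neither naive nor germinal center were mitotic in 8 of 339 (2.36%) in CD163_FL, the level of naive B cells, and in 42 of 549 (7.65%) in CD163_NC (ratio 0.308, interval 0.147 to 0.649). Of the members 31 were lower there and 0 higher, against 19.2% and 13.0% of all genes. Top2a had 17.6 and 133 CPM (0.132-fold, interval 0.0860 to 0.195) and Pclaf 8.46 and 110 CPM (0.0771-fold, interval 0.0406 to 0.134). Ccnb1 and Cenpf had 0 UMIs in CD163_FL, against 37 and 89 UMIs in CD163_NC. In the resting naive B cells, 18 members were lower and 0 higher, against 14.7% and 12.6% of all genes, at low levels: Mki67 had 13.5 and 15.8 CPM and Plk1 0.30 and 2.53 CPM.

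**Figure D3:**
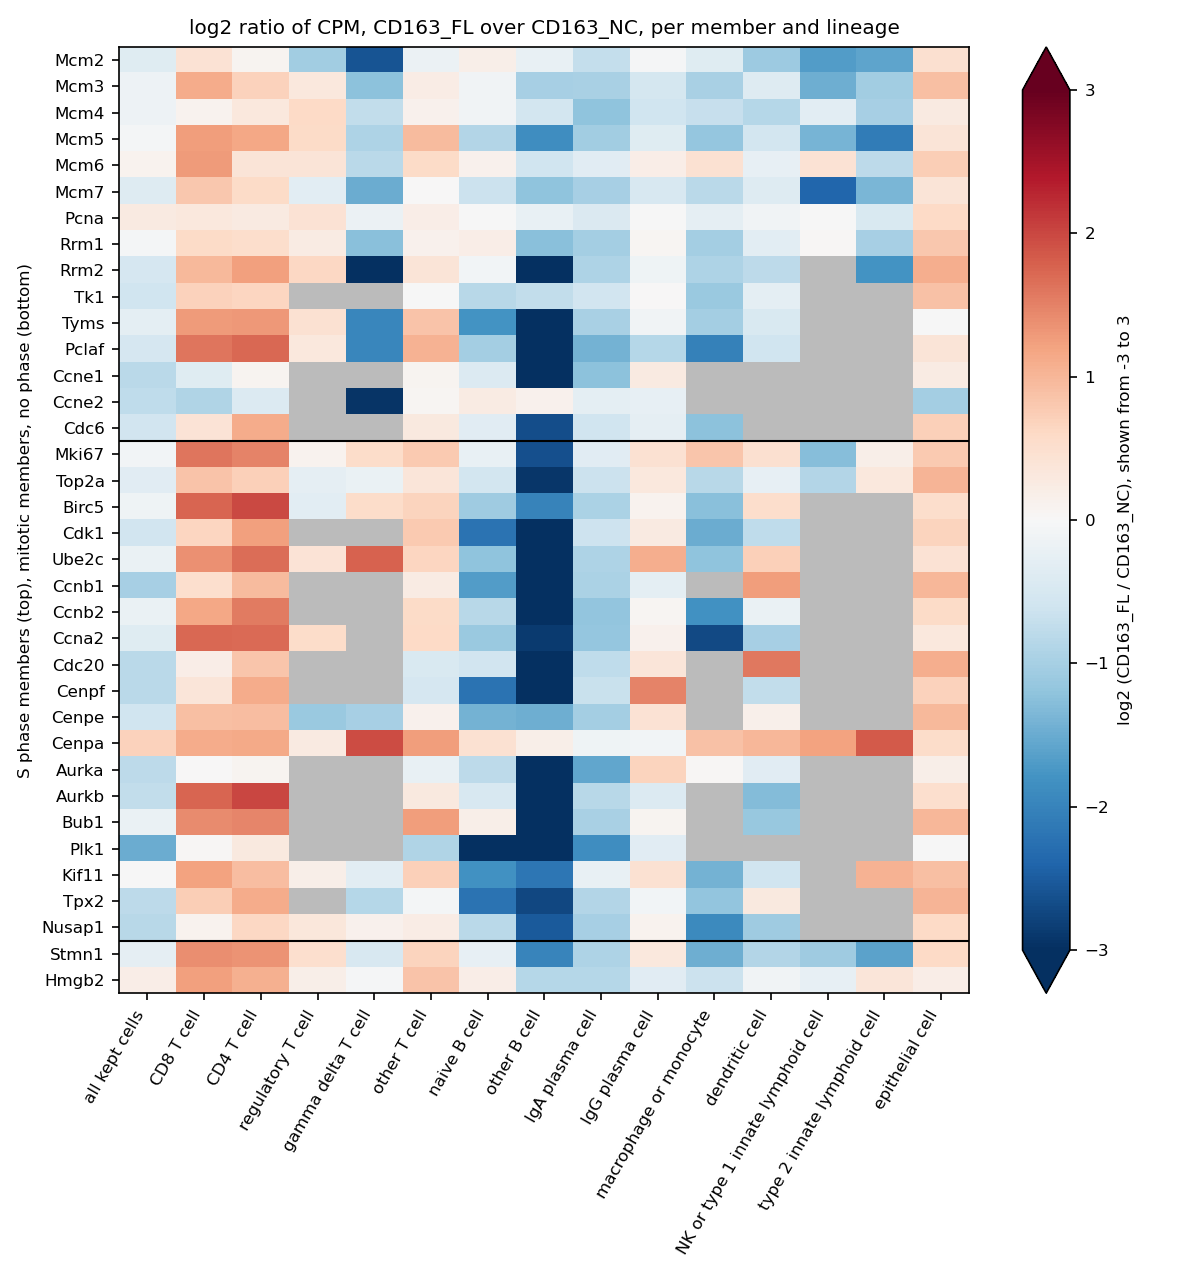
Log2 ratio of CPM, CD163_FL over CD163_NC, for each member (rows, S phase members on top, mitotic members below, then Stmn1 and Hmgb2) in all kept cells and in each of 14 lineages (columns). Red is higher and blue lower in CD163_FL, grey marks members with fewer than 20 UMIs, and values beyond 3, including members with 0 UMIs in CD163_FL, take the end colour. CD8 and CD4 T cells are mostly red (24 and 26 members at least 1.5-fold higher), IgA plasma cells and other B cells mostly blue (29 and 31 members lower).

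Macrophages and monocytes divided little in either library. In CD163_FL 25 of 915 (2.73%) and in CD163_NC 15 of 375 (4.0%) were called mitotic, a ratio of 0.683 with an interval of 0.364 to 1.28, and the interval of each share includes that of naive B cells in the same library, so both are read as background. The first form of the gate, in which cells with markers of granulocyte progenitors could count as macrophages, had given 7.89% in CD163_NC and a ratio of 0.346, and 33 members lower. That gate was changed after this result was seen, because the extra mitotic cells carried the progenitor gene Mpo. Mpo has a UMI in 95.3% of the cells now set apart as progenitors, which were themselves chosen by progenitor markers. Under the changed gate, leaving out macrophages with 2 or more progenitor markers gave 2.75% and 3.84% mitotic. S positive macrophages were 2.95% and 6.13%, both below the naive B cell shares. Of 27 members measured in macrophages 21 were at least 1.5-fold lower and 2 higher, against 35.2% and 17.8% of all genes, in a lineage where the median of all genes was itself -0.26 on the log2 scale. Relative to that median 17 were lower and 3 higher. With the level of naive B cells of the same library subtracted, 3 members remained lower. Pclaf had 5.86 CPM in CD163_FL and 23.7 CPM in CD163_NC (0.247-fold, interval 0.162 to 0.371).

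Mki67 and Cenpa were the 2 members higher in macrophages of CD163_FL. Mki67 had 83.5 CPM in CD163_FL and 46.8 CPM in CD163_NC (1.78-fold, interval 1.48 to 2.16), and Cenpa 43.9 and 23.7 CPM (1.85-fold, interval 1.42 to 2.43). Few of these UMIs lay in cells with other members. In the thinned macrophages, 5.43% of the 129 Mki67 UMIs of CD163_FL and 17.2% of the 29 of CD163_NC lay in cells with at least 3 other members, against 67.5% and 75.7% over all cells. Of macrophages with no other member, 10.1% (interval 7.58 to 13.2) in CD163_FL and 5.62% (interval 2.73 to 10.1) in CD163_NC had an Mki67 UMI, against 3.29% and 2.11% of such cells over all lineages.

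The dividing myeloid cells were elsewhere. Granulocyte progenitors, which carry Mpo and mature into neutrophils, were found only in CD163_NC, where 45 of 58 (77.6%) were mitotic, the highest share of any lineage, while CD163_FL held such cells in 0 of 12872, which allows a share of up to 0.0233%. Neutrophils were mitotic in 15 of 117 (12.8%) in CD163_NC, and CD163_FL held 3 neutrophils. Of those 15 mitotic cells 5 (33.3%) carried 2 or more progenitor markers, against 3.06% of the 98 neutrophils of CD163_NC that were neither mitotic nor S positive. Dendritic cells, the antigen-presenting lineage, were mitotic in 32 of 291 (11%) in CD163_FL and in 5 of 73 (6.85%) in CD163_NC (ratio 1.61, interval 0.648 to 3.98). Of 32 members measured there 4 were higher and 12 lower, against 15.8% and 31.1% of all genes, and the median log2 ratio of all genes was -0.21. Relative to it, 6 were higher and 7 lower. The higher ones were Cenpa (1.99-fold), Ube2c (1.63-fold), and Cdc20 and Ccnb1 with 2 UMIs each in CD163_NC.

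Innate lymphoid cells, which lack antigen receptors, had mitotic shares near those of naive B cells. NK or type 1 innate lymphoid cells were mitotic in 2.40% and 4.35%, and type 2 innate lymphoid cells in 1.69% and 2.68%. S positive shares were lower in CD163_FL, 6.80% and 18.8% in the first and 4.51% and 11.4% in the second, with ratios of 0.361 (interval 0.184 to 0.706) and 0.395 (interval 0.205 to 0.761). Both shares of type 2 cells, and the CD163_FL share of NK or type 1 cells, lay below those of naive B cells of the same library (9.02% and 13.4%), and these shares are given as values only. Of 13 members measured in NK or type 1 cells 7 were lower and 1 higher, against 21.7% and 19.3% of all genes, and of 15 measured in type 2 cells 9 were lower and 2 higher, against 21.1% and 18.4%. The higher ones were Cenpa in both and Kif11 in type 2 cells. Epithelial cells, which the CD45 sort should exclude, were mitotic in 15 of 61 (24.6%) in CD163_FL and 21 of 134 (15.7%) in CD163_NC (ratio 1.57, interval 0.870 to 2.83). There 19 members were higher and 1, Ccne2, lower, against 16.2% and 16.9% of all genes, with Cdc20 at 35.9 and 16.9 CPM.

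The mitotic cells of the libraries were spread differently over the lineages. T lineages held 983 of 1473 mitotic cells (66.7%, interval 64.3 to 69.1) in CD163_FL and 170 of 890 (19.1%, interval 16.6 to 21.8) in CD163_NC, while they made up 52.3% and 36.1% of all cells. Plasma cells held 12.8% and 32.5% of the mitotic cells, B lineages 2.44% and 17.3%, and myeloid lineages 3.94% and 8.99%. CD8 T cells alone held 37.1% of the mitotic cells of CD163_FL and 3.82% of those of CD163_NC. The numbers of cells of each type can depend on the sort and on recovery. Shares within a lineage, given above, do not use the numbers of other types. Which cells of a lineage were recovered can also differ between the libraries, and its part in these shares was not tested. When the shares within the 14 lineages were combined with the cell numbers of the other library, the CD163_FL shares gave 9.30% mitotic with the CD163_NC makeup, and the CD163_NC shares gave 6.34% with the CD163_FL makeup, beside the observed 11.4% in CD163_FL and 7.18% in CD163_NC over these lineages.

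**Figure D4:**
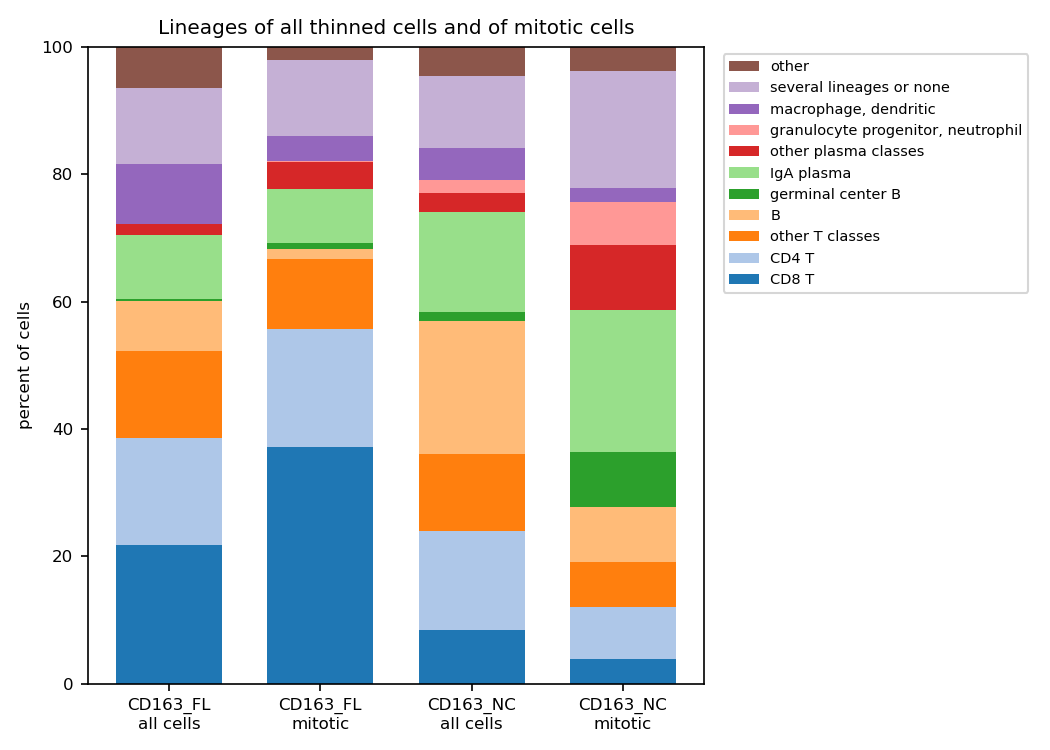
Makeup by lineage (%) of all cells thinned to 2000 UMIs and of the mitotic cells among them, with both bars of CD163_FL left of both bars of CD163_NC. T lineages make up 66.7% of mitotic cells in CD163_FL and 19.1% in CD163_NC, and plasma cells 12.8% in CD163_FL and 32.5% in CD163_NC.

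The mitotic part of the cells that were S positive or mitotic also differed in T cells, but the answer depended on the S phase genes used. The same call took in 10.7% of naive B cells in CD163_FL and 15.2% in CD163_NC, so such cells are not all read as dividing. Of cells that were S positive or mitotic, 53.2% of CD8 T cells in CD163_FL and 20.2% in CD163_NC were mitotic. The shares were 43.1% and 22.1% in CD4 T cells, 40.5% and 22.4% in other T cells, and 67.7% and 68.5% in IgA plasma cells. The Mcm genes, Pcna and Rrm1 have UMIs in many resting cells. With them left out of the S call, the mitotic share of S positive or mitotic CD8 T cells was 93.3% and 87.2%. This alternative was chosen after the data were seen. In it, S positive CD8 T cells were 5.83% of CD163_FL and 1.64% of CD163_NC (ratio 3.56). On that narrower call, S positive IgA plasma cells were 2.38% and 6.36%, and naive B cells 0.30% and 0.47%.

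Within cells that were S positive or mitotic, differences between the libraries were smaller than over whole lineages in CD8 T cells and in IgA plasma cells. Of the 36 members, 13 were at least 1.5-fold higher and 4 lower in such CD8 T cells, beside 24 and 1 over all CD8 T cells, and the median log2 ratio was 0.35. All genes measured in these cells were higher in 19.5% and lower in 17.0%. In such CD4 T cells 24 were higher and 0 lower, against 14.4% and 15.6% of all genes, and 23 of the 24 were also higher over all CD4 T cells. In such IgA plasma cells 14 were lower and 0 higher, against 18.2% and 11% of all genes. The members themselves took part in choosing these cells, so these counts are a description.

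Members differed in how far they were confined to cells expressing others. Over all thinned cells, 87.6% of Pclaf UMIs in CD163_FL and 89.6% in CD163_NC lay in cells with at least 3 other members, and Ccna2 (87.5% and 85.4%), Bub1 (86.1% and 81.1%) and Cdk1 (83.0% and 80.4%) were close to it. At the other end were Cenpa (22.9% and 27.2%), Pcna (25.3% and 21.4%) and Aurka (32.6% and 51.0%). The order was alike in the libraries for most members, and Aurka, Mki67 (67.5% and 75.7%) and Ube2c (73.6% and 84.4%) had lower values in CD163_FL. Cenpa, the histone variant that marks centromeres, was the only member at least 1.5-fold higher in CD163_FL over all kept cells, at 77.8 CPM against 48.3 CPM in CD163_NC, where 12 members were lower, against 16.4% and 23.3% of all genes. Among cells with no other member, Cenpa had a UMI in 10.8% (interval 9.92 to 11.7) of CD163_FL cells and 5.53% (interval 4.78 to 6.36) of CD163_NC cells. Its ratio was also above 1 in lineages with few mitotic cells, at 3.59 in type 2 innate lymphoid cells (22.4 and 6.25 CPM) and 1.37 in naive B cells (105 and 76.8 CPM).

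Cells with a UMI of 1 member tended to hold others, though not to the same degree for every pair. Of 1066 cells of CD163_FL and 618 of CD163_NC with an Mki67 UMI, 35.6% and 39.5% also had one of Top2a, which was found in 8.76% and 9.36% of all cells, and 33.5% and 38.5% had one of Pclaf, found in 6.32% and 6.34% of all cells. Of 360 and 306 cells with an Rrm2 UMI, 40.6% and 39.9% also had Mki67, found in 8.28% and 7.1% of all cells. Weaker pairs were those of Mcm6. Of 1413 and 794 cells with an Mcm6 UMI, 15.1% and 7.93% also had Cenpa, close to the 13.0% and 7.35% of all cells. Pcna was found in 47.8% and 47.9% of them, against 37.1% and 34.9% of all cells.

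**Figure D5:**
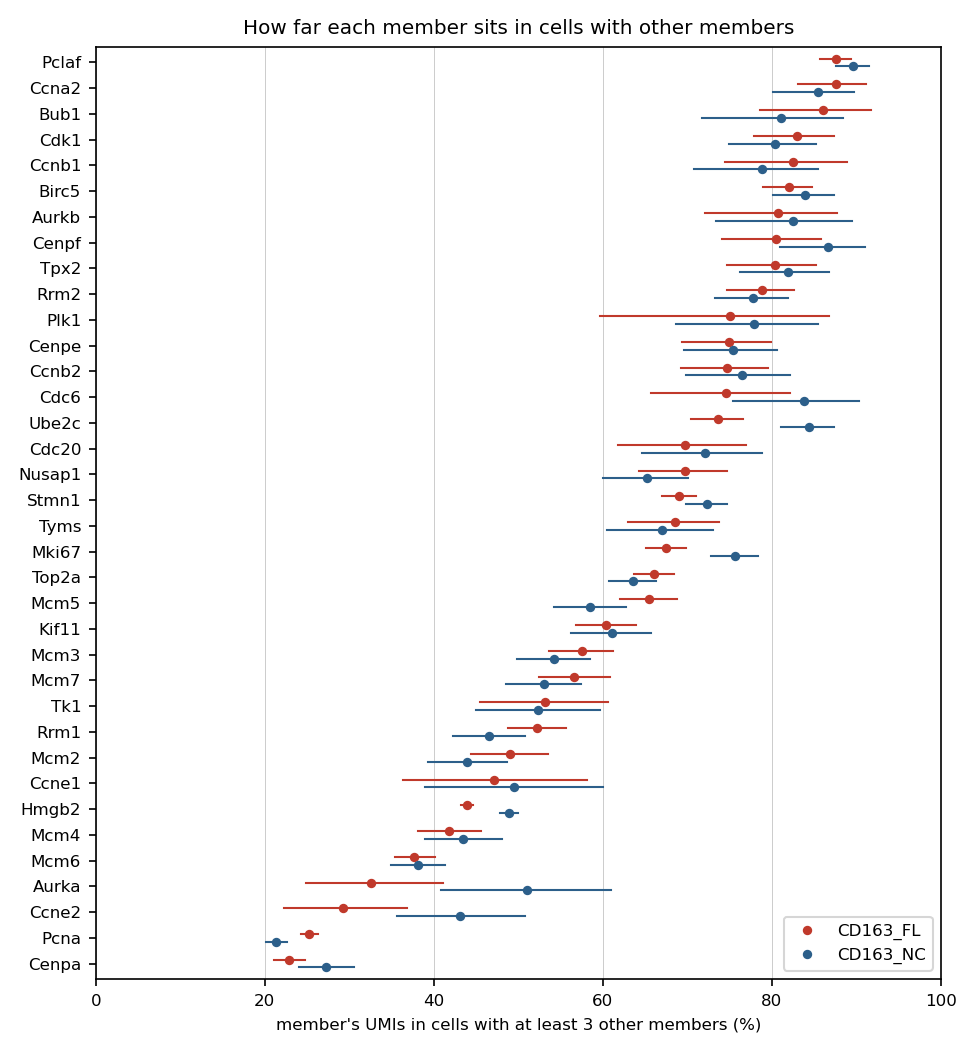
Share of each member's UMIs (%) that lay in cells with at least 3 other members, over all kept cells at 2000 UMIs per cell, with CD163_FL in red above CD163_NC in blue and binomial 95% intervals. Pclaf is at the top (87.6% in CD163_FL, 89.6% in CD163_NC), and Pcna and Cenpa at the bottom, below 30%.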

How the data were processed

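The deposited values are raw UMI counts for each gene in each barcode, which the authors had not normalized. Per the file headers, Cell Ranger 7.1.0 made the matrices. The mm10 build and Seurat 4 are named in the submitters' processing notes without a role. Barcodes needed at least 500 UMIs, 200 genes and at most 10% mitochondrial UMIs, and Scrublet calls (scanpy 1.11.5, Python 3.11.15) were removed. Cells were placed by the number of distinct markers of each list they held, and cells passing several gates were set apart. Giving granulocyte progenitors precedence among myeloid cells was decided after the first macrophage result was seen. The members and lists were chosen with earlier results of these data known. Shares were taken after thinning each cell to 2000 UMIs without replacement, with Clopper-Pearson intervals, and their ratios have log-normal intervals. Levels are CPM of summed UMIs over all kept cells of a lineage, with Poisson intervals, and their ratios have conditional binomial intervals. Members with at least 20 UMIs over both libraries were counted at 1.5-fold. Of the other cell cycle genes, the rule allowed up to 5 each way per lineage with at least 50 UMIs in the higher library and an interval outside 1.5-fold, and examples were taken from these and from the G1 and inhibitor lists after their values were seen. With 1 library per group no test was made. The counting was tested on simulated data. Promoter sequences are RefSeq's.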

Additional observations from a re-analysis of the deposited data

Results flagged for a closer look

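The ratio of mitotic shares, CD163_FL over CD163_NC, had an interval on opposite sides of 1 in different lineages. It was 4.21 in CD8 T cells, 2.33 in CD4 T cells and 1.83 in other T cells. It was 0.308 in B cells that were neither naive nor germinal center and 0.668 in IgA plasma cells. With 1 library per group, the difference between lineages was not tested.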

How the results depend on the processing

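No paired analysis was possible because each group was 1 library, and for the same reason no replicate could be left out. The mitotic ratios of CD8, CD4 and IgA plasma cells kept their side of 1 in all 9 alternatives. The mitotic ratio of CD8 T cells was 2.38 without thinning and 1.58 with 1 member needed; that of CD4 T cells was 3.08 at 1000 UMIs, 1.46 without thinning, 1.37 with 1 member and 3.63 with 3; that of IgA plasma cells was 0.879 without thinning and 0.901 with 1 member; and that of all cells was 1.01 at 1000 UMIs. Lineages at least 1.5-fold lower in mitotic share numbered 5 at 1000 UMIs, 0 with 1 member and 6 with 3, and those higher numbered 3 with 3 members. The S ratio of CD8 T cells was 1.78 at 1000 UMIs, 1.15 without thinning, 1.05 with 1 member, 2.67 with 3 and 3.56 without the Mcm genes, Pcna and Rrm1, where that of all cells was 0.778. Of S positive or mitotic CD8 T cells of CD163_NC, 27.3% were mitotic without thinning and 37.0% with 1 member. The value was 32.7% with 3 members and 87.2% on the narrower S call. In CD163_FL it was 60.8% with 3 members and 93.3% on that call. In macrophages, the first form of the gate gave a mitotic ratio of 0.346 and 33 members lower, and subtracting the naive B cell level left 3 members lower. Ratios that crossed 1 were those of S positive macrophages (1.09 at 1000 UMIs, 2.05 with 3 members), mitotic type 2 innate lymphoid cells (1.20 at 1000 UMIs, 1.45 with 1 member), mitotic epithelial cells (0.938 at 1000 UMIs) and mitotic NK or type 1 innate lymphoid cells (2.56 without thinning, 1.16 with 1 member, 1.93 with immunoglobulin UMIs removed). Over their alternatives the ratios also crossed 1 for mitotic gamma delta T cells (0.783 to 2.14), macrophages (0.346 to 1.24) and regulatory T cells (0.615 to 1.41), and for S positive other T cells (0.913 to 3.60), regulatory T cells (0.615 to 1.23), IgG plasma cells (0.670 to 1.10) and CD4 T cells (0.982 to 2.70). The cause of these shifts was not tested. Removing immunoglobulin UMIs, the narrower S call and the order of the progenitor gate were alternatives chosen after seeing the data.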
